A study of Homo sapiens with 4 samples.

Results

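The genes described here encode subunits of the mitochondrial respiratory chain and of ATP synthase. They were chosen by gene symbol from the array's annotation: complex I symbols starting with NDUFA, NDUFB, NDUFC, NDUFS or NDUFV without the NDUFAF assembly factors, SDHA to SDHD for complex II, UQCR for complex III, COX4 to COX8 for complex IV, and ATP5F, ATP5M or ATP5P for complex V. The rule found 100 probe sets for 67 genes, out of 19064 probe sets and 11963 genes with a single symbol. A further 9 probe sets that name a respiratory chain gene together with another gene were left out by the rule. Of the 67 genes, the antisense RNA gene NDUFB2-AS1 and the pseudogene ATP5MC2P1 encode no subunit, which left 65 subunit genes.

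RNA was measured in 2 human leukemia lines that carry the Philadelphia chromosome and express the BCR-ABL1 fusion kinase. The groups were SUP-B15 cells given 10 μmol/l STI571 for 16 h, untreated SUP-B15 cells, and the same pair for BV-173. STI571 is imatinib, which blocks that kinase. Each of the 4 groups held a single array of total RNA; without replicates, precision is limited by how few arrays there are. In bulk RNA of this kind, fewer cells of a type and less RNA per cell cannot be told apart.

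Deposited signals are linear intensities that the authors had scaled array by array. Changes are differences on a log2 scale after 24.5 was added to each signal, so those of dim genes are understated, and the brightest probe set stands for a gene. In all, 94 of the 100 probe sets and 63 of the 65 subunit genes reached their array's median in at least 1 array and were tested among 7916 genes. All 63 also passed a filter at the 75th percentile. A single limma model of the 4 arrays, with a term for the line and a term for STI571, gave the effect of STI571 over both lines and the contrast of SUP-B15 with BV-173. It leaves 1 residual degree of freedom, which is the gap between the responses of the lines. The standard errors (SE) come from the spread of that gap over genes at the same brightness, and not from a gene's own replicates. A gene's own gap had no weight in this fit. The SE and p-values therefore do not measure the spread between repeated cultures.

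Markers of cell types were read on each array. Summed signal of the 7 markers of B cell precursors was 47993 with STI571 and 34801 untreated in SUP-B15, and 20097 with STI571 and 9268 untreated in BV-173. DNTT was the largest part of each sum, at 29317 and 22251 in SUP-B15 and 11815 and 3646 in BV-173. CD79A was lower with STI571 in both lines (1583 against 1633 in SUP-B15, 502.3 against 897.3 in BV-173). CD22 was lower with STI571 in SUP-B15 only (379.4 against 711.7). MME, the CD10 antigen, was at 4178 and 2102 in SUP-B15 but only 81.4 and 31.3 in BV-173. Summed signals of markers of T cells (6 genes), myeloid cells (4), erythroid cells (2) and fibroblasts (4) lay between 30.9 and 372.6 in every array. Signal of 18S ribosomal RNA was 2817 in BV-173 with STI571, against 1513 to 1596 in the other 3 arrays. The part of these differences in the values below was not tested.

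The respiratory chain moves electrons from NADH (complex I) and succinate (complex II) through ubiquinone, complex III and cytochrome c to oxygen at complex IV. Complexes I, III and IV pump protons, and complex V, ATP synthase, uses the returning protons to turn its ring of c subunits and make ATP. A few core subunits are encoded by mitochondrial DNA. The genes described here are the nuclear ones, whose promoters are known targets of the transcription factors NRF1, GABP, YY1 and ERR.

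The first question was how these genes responded to STI571. Of the 63 subunit genes, 1 fell and 0 rose at an adjusted p under 0.05 (limma, Benjamini-Hochberg over 7916 genes). The gene that fell was ATP5MC1, a gene for the c subunit of ATP synthase. Among all genes tested, 1.62% were called lower and 1.4% higher, so the share of subunit genes called lower, 1.59%, was near the background (3.02% in either direction). At an unadjusted p under 0.05, 5 subunit genes were lower (7.94%, against 6.08% of all genes), namely ATP5MC1, NDUFAB1, NDUFA1, UQCR11 and NDUFV1, and 1, SDHA, was higher (background 6.18%).

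ATP5MC1 was at 704.5 with STI571 and 1906 untreated in SUP-B15, and at 1484 with STI571 and 2601 untreated in BV-173. Both treated arrays were below both untreated arrays. The signal was 2.65-fold lower with STI571 in SUP-B15 and 1.74-fold lower in BV-173, a mean log2 change of −1.10 (SE 0.21, limma adjusted p = 4.34e-05), and it stood at place 162 among the 7916 genes when these were ordered by mean decrease. The call was lost when the spread was not tied to brightness (adjusted p = 0.555) and when the line was left out of the model (1.0). ATP5MC1 has a single probe set on the array, which carries the maker's mark for probes shared between transcripts. RefSeq names 8 pseudogenes of ATP5MC1, and their part in this signal was not tested.

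The same mature c subunit is made from 3 genes that differ in the targeting sequence cut off on import, which allows a comparison within the family. ATP5MC2 was at 8138 with STI571 and 10330 untreated in SUP-B15, and at 11549 with STI571 and 9791 untreated in BV-173. Its mean log2 change was −0.05 (SE 0.21, limma adjusted p = 0.969), with changes of −0.34 and 0.24 in opposite directions. ATP5MC3 was at 4747 with STI571 and 5675 untreated in SUP-B15, and at 7052 with STI571 and 8280 untreated in BV-173, a mean log2 change of −0.24 (SE 0.21, adjusted p = 0.757). The second probe set of ATP5MC3 gave −0.69 in SUP-B15 and −0.08 in BV-173. Neither gene passed the test, and the difference between them and ATP5MC1 was not itself tested.

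**Figure D1:**
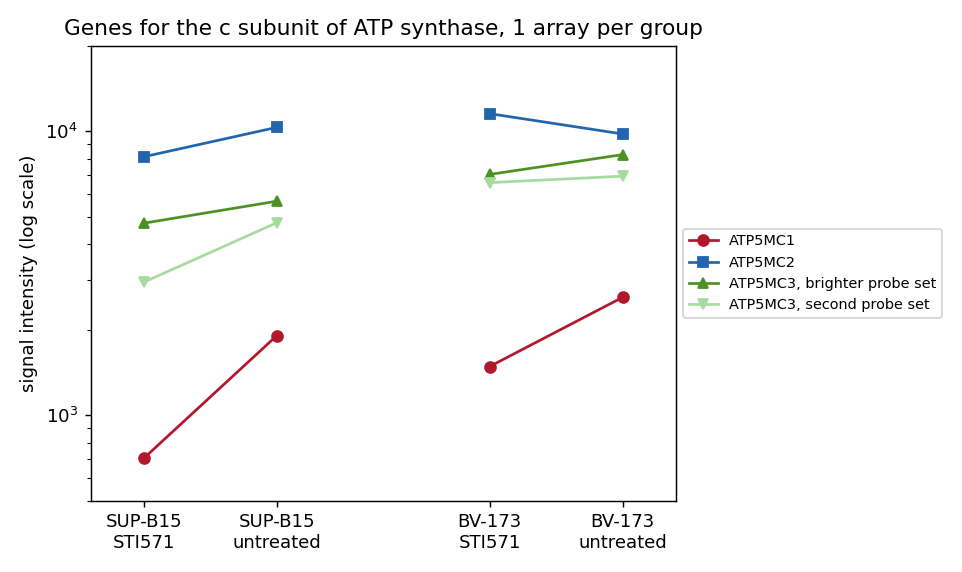
Signal intensity (log scale) of the c subunit genes of ATP synthase in each of the 4 arrays, 1 point per array and probe set, with lines joining the treated and untreated array of a line. ATP5MC1 is lower with STI571 in both lines (704.5 against 1906, and 1484 against 2601), while for ATP5MC2 the treated array is the lower one in SUP-B15 and the higher one in BV-173. Heights of different probe sets are not comparable.

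The promoters of ATP5MC1 and ATP5MC2 are shown because these genes for the same protein differed in their values. That of SDHA is shown because, by brightest probe sets on the deposited scale, only SDHA was higher in both lines. Other probe sets of UQCRB, COX7C and ATP5MJ, among others, were also higher in both lines. For UQCRB the log2 changes of 1 such probe set were 0.06 in SUP-B15 and 0.23 in BV-173. The sequences are from RefSeq (GRCh38.p14), 250 bases upstream of the start of transcription, 5′ to 3′ on the gene's strand. They lie at chr17:48892537-48892786 (plus strand) for ATP5MC1, chr12:53676084-53676333 (minus strand) for ATP5MC2 and chr5:218070-218319 (plus strand) for SDHA. Capitals mark matches to the motifs described after them, of which ATP5MC2 held none.
ATP5MC1: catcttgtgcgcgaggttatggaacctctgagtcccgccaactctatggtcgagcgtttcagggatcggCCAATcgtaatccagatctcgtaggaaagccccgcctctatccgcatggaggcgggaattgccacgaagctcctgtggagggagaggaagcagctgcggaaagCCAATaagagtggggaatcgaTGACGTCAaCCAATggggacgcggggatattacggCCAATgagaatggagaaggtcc
ATP5MC2: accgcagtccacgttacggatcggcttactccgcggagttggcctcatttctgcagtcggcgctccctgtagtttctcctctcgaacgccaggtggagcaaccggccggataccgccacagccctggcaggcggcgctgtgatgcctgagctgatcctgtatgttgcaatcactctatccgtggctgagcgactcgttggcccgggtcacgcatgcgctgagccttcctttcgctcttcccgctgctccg
SDHA: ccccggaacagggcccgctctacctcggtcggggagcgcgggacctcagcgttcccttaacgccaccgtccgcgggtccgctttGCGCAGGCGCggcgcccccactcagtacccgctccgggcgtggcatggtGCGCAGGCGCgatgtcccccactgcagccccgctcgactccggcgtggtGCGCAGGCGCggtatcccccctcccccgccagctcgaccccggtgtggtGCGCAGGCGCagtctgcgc

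Motifs were searched on both strands of the 300 bases from 250 before to 50 after the start, in the 56 subunit genes of 63 that the RefSeq table held and in 6549 tested genes. The palindromic consensus of NRF1 was in 7.14% of subunit promoters and 2.41% of those of all tested genes. Its looser form, with any base at the sixth of its 10 positions, was in 23.2% and 12.1%. The ETS and GABP motif CCGGAAGT was in 14.3% and 8.9%, and the YY1 motif AAGATGGCG in 12.5% and 4.57%. The ERR motif TCAAGGTCA was in 1 subunit promoter (1.79%, against 0.137%). The E-box CACGTG, the site of MYC and its relatives, was in 10.7% of both. Among all 27303 promoters of this length the shares were 1.36%, 6.29%, 4.44%, 1.85%, 0.359% and 7.44%. A match is a description of the sequence and not a bound site.

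The ATP5MC1 promoter held an E-box at bases 5 to 10 of the transcript, shown here in capitals within its first 20 bases (chr17:48892787-48892806).
ATP5MC1 start: aggaCACGTGggtgggggaa
The other subunit genes with an E-box in the window were ATP5ME, ATP5PB, NDUFA7, NDUFS7 and UQCR11, with mean log2 changes of −0.47 to 0.30, of which 0 were called. The CCAAT box (CCAAT) and the CRE, the site of CREB and ATF factors (TGACGTCA), were added after the ATP5MC1 sequence had been read. ATP5MC1 held 4 CCAAT copies and a CRE, all marked above, whereas ATP5MC2 held neither. A CCAAT box was in 28.6% of subunit promoters, a smaller share than the 38.0% of tested genes. At least 4 CCAAT copies, a limit taken from ATP5MC1 itself, were found in 2 of the 56 subunit promoters, ATP5MC1 included. The share among promoters of tested genes was 1.77%. A CRE was in 7.14% of subunit promoters and 3.56% of those of tested genes. The median of the mean log2 changes was −0.13 for the 16 subunit genes with a CCAAT box and −0.16 for the 40 without. The other subunit genes with a CRE, ATP5ME, NDUFA10 and NDUFB2, had mean log2 changes of −0.16, −0.14 and −0.28 and were not called. In SDHA the looser NRF1 form occurred 4 times as GCGCAGGCGC at a spacing of 49 bases.

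Over the whole chain, most responses to STI571 were small and negative, more so in SUP-B15 than in BV-173 on the deposited scale. The median log2 response of the 63 genes was −0.26 in SUP-B15 and −0.06 in BV-173, where all genes tested had medians of −0.01 and 0.05. The response was negative for 57 of the 63 genes in SUP-B15 (90.5%, against 51.3% of all genes) and for 40 in BV-173 (63.5%, against 46.4%). It was negative in both lines for 35 genes (55.6%, against 26.5% of all genes tested) and positive in both for 1, SDHA (background 28.8%). With only probe sets that lack the maker's mark for shared probes, the share negative was 73.2% in SUP-B15 and 65.9% in BV-173 (41 subunit genes). A negative sign is not a call, and no test was made of these counts.

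The sizes were small. The shares of all genes given here for comparison are not matched for brightness. Every subunit gene tested passed the filter at the 75th percentile, while the background reaches down to the array median. The fitted SE was larger for dim genes, for example 0.42 for the pseudogene ATP5MC2P1 against 0.20 for NDUFB1. The part of brightness in the gaps between these shares was not tested. A decrease of at least 1.5-fold was seen for 5 genes in SUP-B15 (7.94%, against 14.3% of all genes) and for 1 in BV-173 (1.59%, against 11.2%), and an increase of that size for 1 in SUP-B15 (background 11.8%) and 0 in BV-173 (background 16%). The decreases were in ATP5MC1, NDUFA1, NDUFAB1, NDUFV1 and NDUFA3 in SUP-B15 and in ATP5MC1 in BV-173. At 2-fold, 1 gene was lower in SUP-B15 (5.68% of all genes) and 0 in BV-173 (4.6%), and 0 were higher in either line (4.08% and 6.91%). At a ratio of 5 to 4, 24 genes were lower in SUP-B15 (38.1%, against 26.6%) and 7 in BV-173 (11.1%, against 22.2%), while 3 were higher in SUP-B15 (background 23.5%) and 1 in BV-173 (28.4%).

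How far the lines differed depended on the scaling between arrays. With each array set to a common median, the subunit medians became −0.15 in SUP-B15 and −0.24 in BV-173, and those of all genes 0.08 and −0.11. The counts of negative responses changed too, to 48 of the 63 subunit genes in SUP-B15 (76.2%) and 56 in BV-173 (88.9%). Relative to the median of all genes, the subunits were lower by 0.24 in SUP-B15 and 0.11 in BV-173 as deposited, by 0.23 and 0.12 with a common median, and by 0.26 and 0.05 after quantile normalization. The order of the raw medians thus depended on the scaling. A common median multiplies each array by a constant, so it could hardly alter the gap to the median gene. Quantile normalization could, and the subunits stayed below the median gene there, though by only 0.05 in BV-173.

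**Figure D2:**
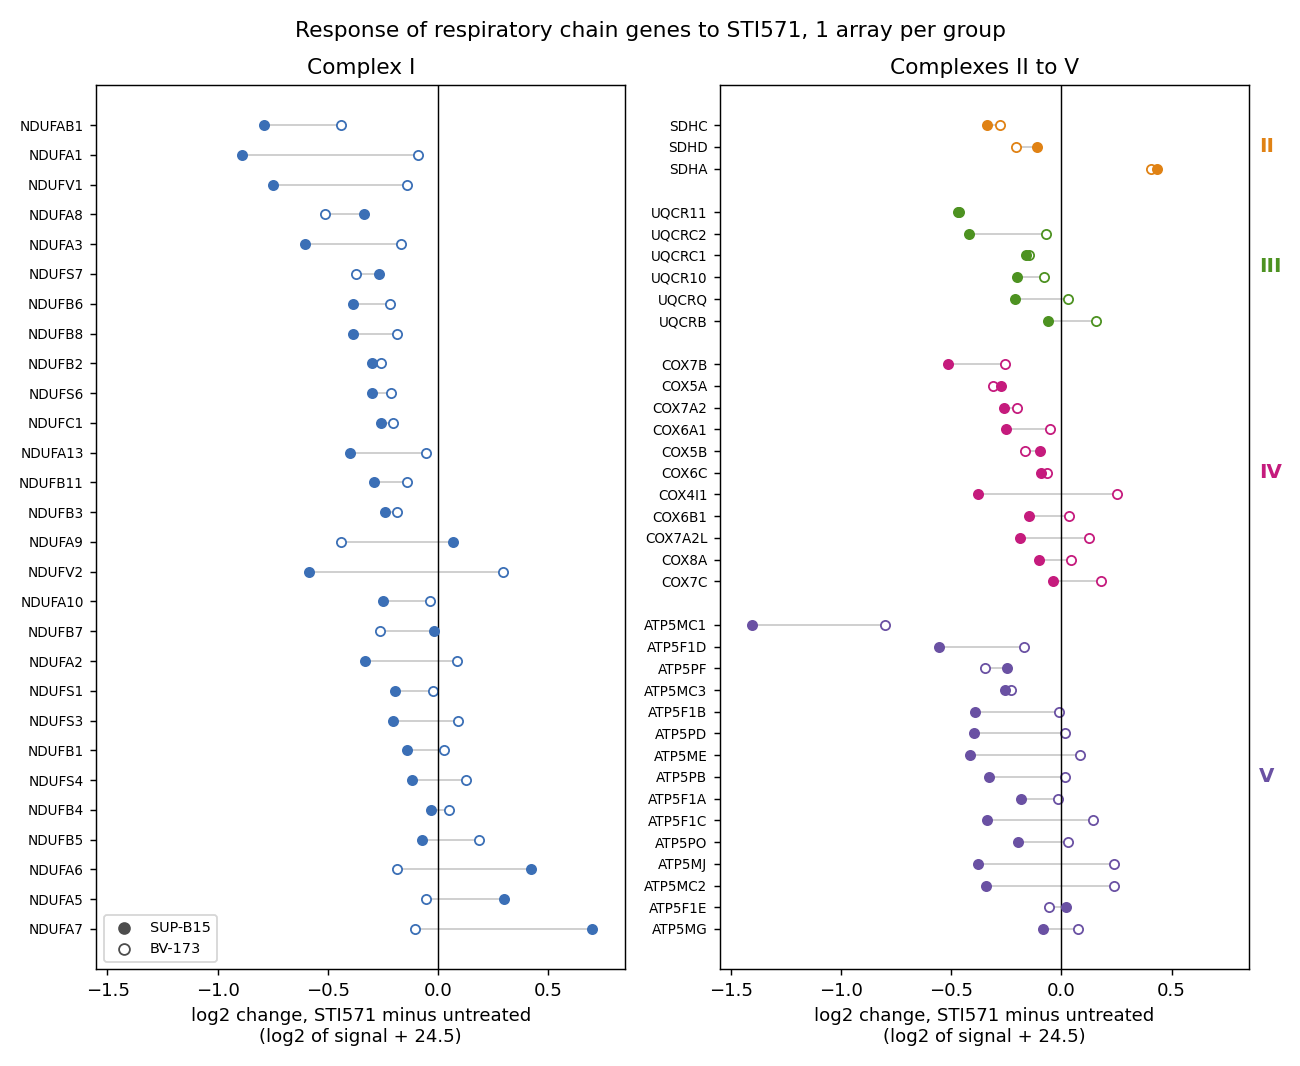
Log2 change with STI571 for each of the 63 subunit genes, by complex and ordered by mean change, filled points for SUP-B15 and open points for BV-173, 1 pair of arrays each. Most filled points lie left of 0, ATP5MC1 lies furthest left in both lines, and SDHA alone lies right of 0 in both.

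In complex I, 28 genes were tested and 0 were called. The median response was −0.26 in SUP-B15 and −0.14 in BV-173, with a negative sign in both lines for 17 genes. NDUFAB1, the acyl carrier protein of mitochondria and an accessory subunit of the complex, was at 4856 with STI571 and 8419 untreated in SUP-B15, and at 7498 with STI571 and 10175 untreated in BV-173. It was lower in both lines, by a mean log2 change of −0.62 (SE 0.21, limma adjusted p = 0.0832), and passed the test after quantile normalization alone (adjusted p = 0.03). NDUFA1, a small membrane subunit needed for assembly, was at 3216 with STI571 and 5971 untreated in SUP-B15, but at 3689 with STI571 and 3923 untreated in BV-173 (limma adjusted p = 0.232). NDUFV1, which binds FMN and takes the electrons from NADH, had log2 changes of −0.75 in SUP-B15 and −0.14 in BV-173 (adjusted p = 0.321).

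Positive mean changes in complex I were smaller still. NDUFA7, an accessory subunit of the matrix arm, was at 1188 with STI571 and 722.4 untreated in SUP-B15, and at 568.6 with STI571 and 613.7 untreated in BV-173 (limma adjusted p = 0.738). NDUFA5 had 0.30 in SUP-B15 and −0.05 in BV-173, and NDUFA6, a partner of the acyl carrier protein, 0.42 and −0.19. The second probe set of NDUFA6 went the other way in each line, at −0.27 and 0.17. Of the core subunits that carry iron-sulfur clusters, NDUFS1, NDUFS7 and NDUFV2 had mean changes of −0.11, −0.32 and −0.14, and NDUFV1, described above, −0.44.

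Complex II, succinate dehydrogenase, was measured by 3 genes with 0 called. SDHA, the flavoprotein that oxidizes succinate, was at 2114 with STI571 and 1560 untreated in SUP-B15, and at 2288 with STI571 and 1721 untreated in BV-173. Both treated arrays were above both untreated ones, a mean log2 change of 0.42 (SE 0.21, limma adjusted p = 0.387). The membrane anchors SDHC and SDHD had mean changes of −0.31 and −0.16, and the 4 probe sets of SDHC ranged from −0.31 to 0.15. The SDHA probe set carries the maker's mark for shared probes, and RefSeq names 4 SDHA pseudogenes, so the signal may not come from SDHA alone.

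In complex III, by brightest probe sets, all 6 genes had a negative response in SUP-B15 and 4 in BV-173, with 0 called. With a common median these counts were 5 and 6. UQCR11, a small accessory subunit, was at 3997 with STI571 and 5525 untreated in SUP-B15, and at 4154 with STI571 and 5762 untreated in BV-173. Its log2 changes of −0.46 and −0.47 were nearly equal in the lines (limma adjusted p = 0.268). The core proteins UQCRC2 and UQCRC1 had mean changes of −0.25 and −0.15, and the quinone-site subunit UQCRB 0.05. In SUP-B15 the brightest probe set of UQCRB had −0.06, while its other probe sets had 0.06 and 0.25.

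In complex IV, cytochrome c oxidase, 0 of the 11 genes tested were called. On the deposited scale all 11 had a negative response in SUP-B15, with a median of −0.19, and 6 had one in BV-173, with a median of −0.05. With a common median, 7 were negative in SUP-B15 and 9 in BV-173. COX7B, a small subunit of the membrane part, was at 5897 with STI571 and 8444 untreated in SUP-B15, and at 4846 with STI571 and 5793 untreated in BV-173 (limma adjusted p = 0.46). COX5A and COX7A2 had mean changes of −0.29 and −0.23, and COX7C, the only gene of this complex with a positive mean, 0.07. COX4I1, the nuclear subunit that binds ATP, had −0.38 in SUP-B15 and 0.25 in BV-173 on its brightest probe set. Its second probe set gave −0.12 and −0.30, and a further dim one 1.60 and 0.52. The muscle isoform genes COX6A2 and COX7A1 did not reach an array median, with signals of 20.2 to 76.2 and 5 to 41.5, while their widely expressed partners COX6A1 and COX7A2 were measured with log2 changes between −0.26 and −0.05 in each line. NDUFA4, a subunit now assigned to complex IV and annotated as COXFA4, falls outside the rule and had 0.15 in SUP-B15 and −0.12 in BV-173. The dim COXFA4L2 was at 48.6 to 91.6.

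Complex V had 15 genes, all with a negative mean change. Of these, 14 had a negative response in SUP-B15 and 7 in BV-173, and with a common median 13 in each line. In the catalytic head, the alpha and beta subunit genes ATP5F1A and ATP5F1B had log2 changes of −0.18 and −0.39 in SUP-B15 and −0.01 each in BV-173. ATP5F1D, the delta subunit of the central stalk, had a mean change of −0.36 (SE 0.22, limma adjusted p = 0.577), but its second probe set gave 0.32. ATP5PF, coupling factor 6 of the outer stalk, had −0.25 in SUP-B15 and −0.35 in BV-173. The median of complex V was −0.34 in SUP-B15 and 0.01 in BV-173, and the BV-173 median changed sign with a common median (−0.16) and after quantile normalization (−0.01).

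**Figure D3:**
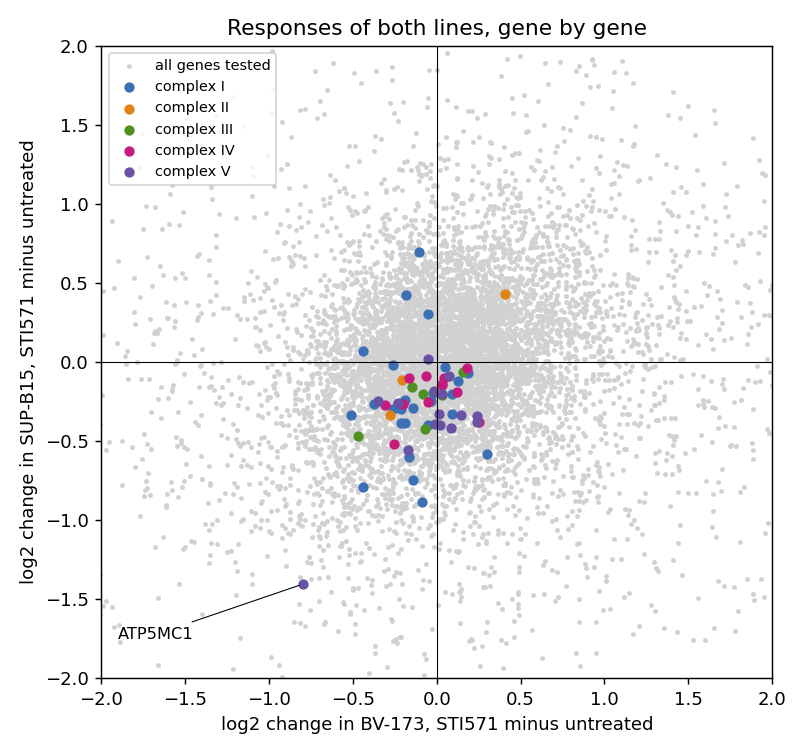
Log2 change with STI571 in BV-173 (x axis) against that in SUP-B15 (y axis), 1 point per gene, all 7916 genes tested in grey and subunit genes coloured by complex; 248 genes lie outside the axes. Subunit genes gather below 0 on the y axis and around 0 on the x axis, with ATP5MC1 at −0.80 and −1.41.

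Of 18 subunit genes with more than 1 probe set kept, the brightest and the next agreed in the sign of the mean change for 14, and ATP5F1D, ATP5MJ, NDUFA2 and NDUFA6 differed. For NDUFB8 all 3 probe sets were lower in both lines, between −0.19 and −0.77. The median gap between the highest and lowest probe set of a gene was 0.16 on the log2 scale, about as large as the median change of the chain.

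The responses of the lines lay furthest apart, with SUP-B15 lower, for NDUFV2, NDUFA1 and COX4I1. NDUFV2, which sits beside NDUFV1 at the NADH site, was at 2241 with STI571 and 3369 untreated in SUP-B15, and at 3390 with STI571 and 2755 untreated in BV-173. In the other direction they were NDUFA7, NDUFA6 and NDUFA9, and NDUFA9 had 0.07 in SUP-B15 and −0.44 in BV-173. The lines had opposite signs for 27 of the 63 genes, against 3541 of all 7916. The SUP-B15 response was below that of BV-173 for 49 of the 63 genes (77.8%, against 54.4% of all genes), with a median difference of −0.17. With a common median that difference was 0.10, so its direction rests on the scaling. No test was possible, since 4 arrays leave no spread once line, treatment and their interaction are fitted.

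The next comparison set the lines against each other, averaged over treatment. Of the 63 subunit genes, 6 were called higher in SUP-B15 and 12 lower (limma, adjusted p under 0.05), against 14.4% of all genes called higher and 14.4% lower (28.7% in all). The shares among subunit genes were 9.52% and 19.0%. Without the intensity trend 0 of these 18 calls were made, while 629 of the 7916 genes stayed called, and without the treatment term 7 subunit genes were called. Both SUP-B15 arrays were above both BV-173 arrays for 8 genes (12.7%, against 28.9%) and below them for 27 (42.9%, against 30.9%). The median difference was −0.15 for the subunits and −0.04 for all genes, and −0.28 and −0.15 with a common median.

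The genes higher in SUP-B15 were mostly accessory subunits of complex I. NDUFA5 was at 4191 with STI571 and 3395 untreated in SUP-B15, against 1961 and 2034 in BV-173, a log2 difference of 0.91 (SE 0.20, limma adjusted p = 8.27e-05). NDUFA7, NDUFB1, NDUFB2 and NDUFC1 had log2 differences of 0.55 to 0.63 (adjusted p = 0.0103 to 0.0323), and each lost its call with a common median (0.112 to 0.231). UQCRQ of complex III was at 3890 and 4506 in SUP-B15 and 2357 and 2310 in BV-173, a difference of 0.84 (SE 0.20, adjusted p = 0.000319).

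The genes lower in SUP-B15 came from complexes I, III, IV and V. NDUFS7, whose iron-sulfur cluster hands electrons to ubiquinone, was at 712.3 with STI571 and 861.6 untreated in SUP-B15, against 1285 and 1670 in BV-173, a log2 difference of −0.88 (SE 0.22, limma adjusted p = 0.000555). ATP5F1A, the alpha subunit of ATP synthase, was at 13606 and 15435 in SUP-B15 and 25134 and 25386 in BV-173, a difference of −0.80 (adjusted p = 0.00288). NDUFA10 had −0.79 (adjusted p = 0.00116) and NDUFV1 −0.75 (0.00175). UQCRB, UQCRC2 and UQCRC1 of complex III had −0.70, −0.68 and −0.56, and UQCRB and UQCRC2 gave −0.68 and −0.64 on their second probe sets. ATP5MC1 was also lower in SUP-B15, by −0.75 (adjusted p = 0.00268), with −1.05 between the treated arrays and −0.44 between the untreated ones. NDUFA9, COX7A2L, ATP5MC3 and COX5A completed the 12, with −0.64 to −0.52 and adjusted p of 0.0108 to 0.0485.

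**Figure D4:**
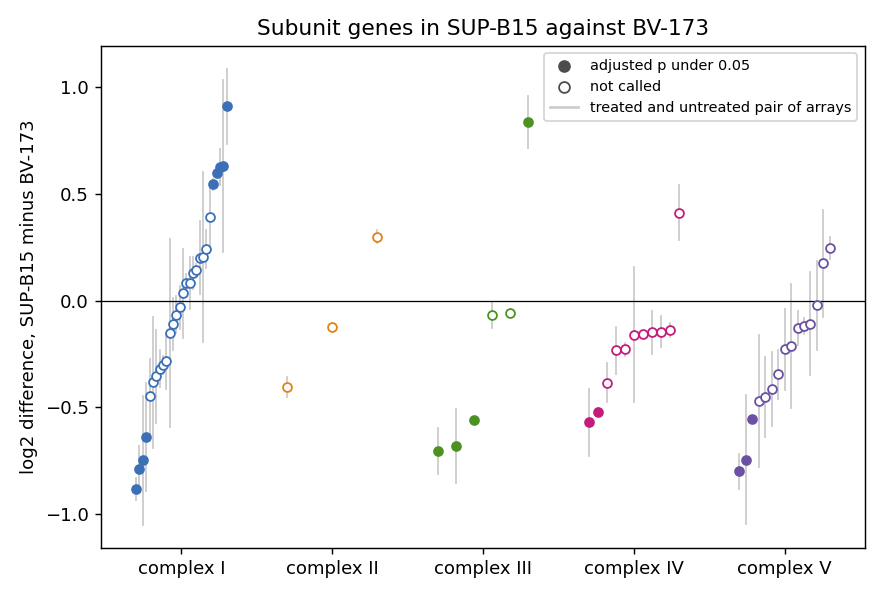
Log2 difference, SUP-B15 minus BV-173, for each subunit gene by complex; points are means over treated and untreated arrays, filled where limma's adjusted p is under 0.05, and grey lines run between the difference of the treated arrays and that of the untreated arrays. Complex I spreads to both sides, from −0.88 to 0.91, while 10 of 11 genes of complex IV and 13 of 15 of complex V lie below 0.

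Other mitochondrial genes were then read beside the chain, with the same call rule and background (1.62% lower, 1.4% higher). Among 18 electron carriers and subunits that the rule leaves out, 0 were called. Cytochrome c, CYCS, was at 9384 with STI571 and 13312 untreated in SUP-B15, and at 7461 with STI571 and 13020 untreated in BV-173, lower in both lines (mean log2 change −0.65, limma adjusted p = 0.0695). CYC1, cytochrome c1 of complex III, had −0.62 in SUP-B15 and −0.50 in BV-173 (adjusted p = 0.131). It also differed between the lines, by −1.71 (adjusted p = 5.03e-15), a larger difference than that of any of the 63 subunit genes. At the other end, ETFDH, which passes electrons from fatty acid oxidation to ubiquinone, had a mean change of 0.75, made up of −0.09 in SUP-B15 and 1.59 in BV-173, where its untreated signal was 61.7. COQ7, of ubiquinone synthesis, had −0.09 in SUP-B15 and 0.66 in BV-173.

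Among enzymes that feed the chain, 1 gene was called. SUCLG2, a subunit of the GTP-forming succinyl-CoA ligase of the citric acid cycle, was at 277.9 with STI571 and 1198 untreated in SUP-B15, and at 1479 with STI571 and 1942 untreated in BV-173. It fell by a mean of 1.20 on the log2 scale (SE 0.23, limma adjusted p = 2.12e-05) and was the only called gene of 18 in pyruvate dehydrogenase and the citric acid cycle, where IDH3A had −0.55 and PDHX and SUCLA2 had 0.23 and 0.18. PDK1, which inhibits pyruvate dehydrogenase, had −1.37 in SUP-B15 and −0.53 in BV-173 (adjusted p = 0.321), and 0 of 4 kinases and phosphatases were called. The other 3 were higher with STI571 in both lines: PDK2 by 0.55 in SUP-B15 and 0.58 in BV-173, PDK3 by 0.17 and 0.37, and the phosphatase PDP1 by 0.06 and 0.18. The median of the list was 0.11 in SUP-B15 and 0.27 in BV-173. Signals here were low: PDK1 was at 79.5 with STI571 and 243.6 untreated in SUP-B15, and at 140 and 212.8 in BV-173. PDK2 was at 162.3 with STI571 and 103.1 untreated in SUP-B15, and at 130.1 and 79.1 in BV-173.

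Of 22 import genes, 2 were called lower and 0 higher, against 1.62% and 1.4% of all genes tested. The mean change was negative for 19 of them (86.4%, against 48.0% of all genes). TOMM40, the channel of the outer membrane, was at 421.7 with STI571 and 909.2 untreated in SUP-B15, and at 710 with STI571 and 1058 untreated in BV-173 (mean log2 change −0.81, limma adjusted p = 0.0277). HSPE1, the cochaperonin of the matrix, had −0.83 in SUP-B15 and −0.61 in BV-173 (adjusted p = 0.0202). TIMM9 had a mean change of 0.17, and PMPCB had −0.05 in SUP-B15 and 0.28 in BV-173. Of 50 mitochondrial ribosomal protein genes 0 were called, with a median of −0.24 in SUP-B15 and −0.14 in BV-173; MRPS34, MRPS28 and MRPL40 had mean changes of −0.64, −0.58 and 0.27, and MRPS18A had −0.18 in SUP-B15 and 0.63 in BV-173. Assembly factors (27 genes, 0 called) had medians of −0.25 and −0.19, with mean changes of −0.55 for ECSIT and −0.44 for UQCC1. SURF1 had −0.12 in SUP-B15 and 0.40 in BV-173, and NDUFAF7 had 1.22 and −0.21. NDUFAF7 was dim, at 174.4 with STI571 and 61.1 untreated in SUP-B15, and at 68.5 and 83 in BV-173.

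Regulators of mitochondrial biogenesis and of mitochondrial DNA expression (17 genes, 0 called) had medians of 0.06 in SUP-B15 and −0.12 in BV-173. GABPA and GABPB1, which form the factor GABP, had mean changes of 0.51 and 0.44, with 0.97 and 0.72 in SUP-B15 against 0.04 and 0.15 in BV-173. GABPA was dim in SUP-B15, at 134.5 with STI571 and 56.4 untreated, where the median of the untreated array was 115. MTERF1 had 0.07 in SUP-B15 and −1.85 in BV-173, where the signals were 22.4 with STI571 and 144.3 untreated, and PPRC1 had −0.36 and −0.45. Carriers and channels (12 genes, 0 called) had medians of −0.33 and 0.05; SLC25A4 had −0.56 in SUP-B15 and −0.26 in BV-173, and SLC25A1 had −0.91 and 0.05. SLC25A13 had −0.25 in SUP-B15 and 1.78 in BV-173, over an untreated signal of 6.2, and UCP2 had −0.22 and 0.55. Antioxidant enzymes (8 genes, 0 called) had medians of −0.11 and 0.17, with mean changes of −0.31 for PRDX3, −0.29 for SOD1 and 0.15 for TXN2. NNT had 0.00068 in SUP-B15 and 0.97 in BV-173.

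**Figure D5:**
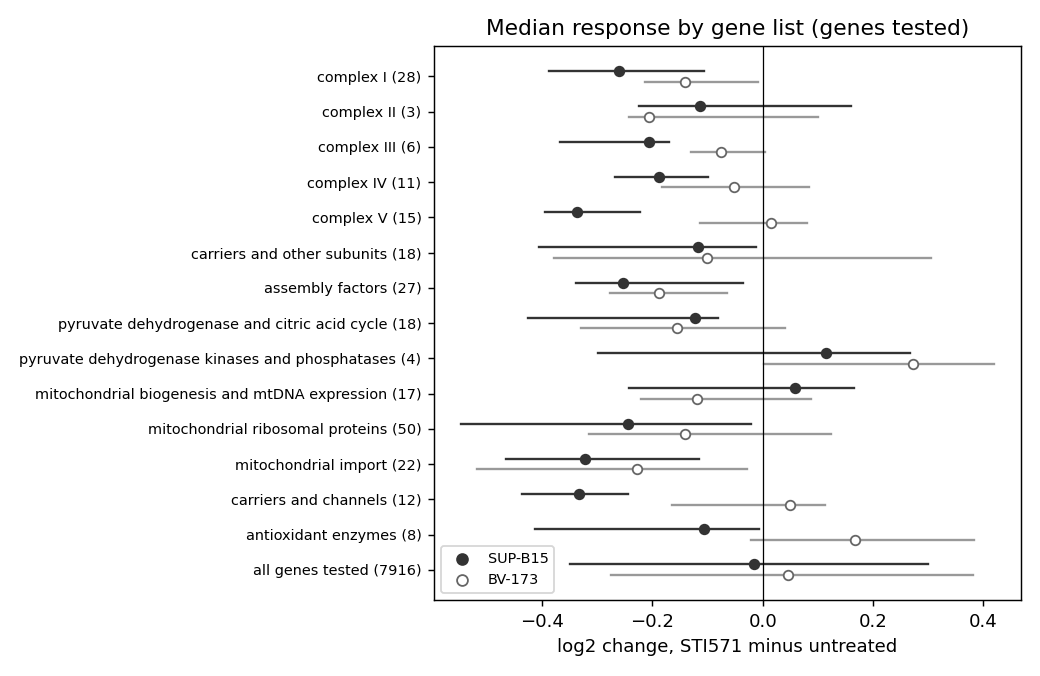
Median log2 change with STI571 (points) and the middle 50% of genes (lines) for each complex and each other mitochondrial gene list, filled for SUP-B15 and open for BV-173, with the number of genes tested in brackets. Complex V lies at −0.34 in SUP-B15 and 0.01 in BV-173, import genes at −0.32 and −0.23, and all genes tested at −0.01 and 0.05.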

How the data were processed

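The deposited values are signal intensities per probe set on a linear scale; per the submitters' processing notes they came from GCOS 1.3. Probe summarisation is not given in the sources used here, and the 2%-trimmed mean was 500.2 in every array. Of 22277 probe sets, 62 controls, 1043 with several symbols and 2108 with none were left out. The pseudocount of 24.5 is the 25th percentile over all signals. Probe sets below the 50th percentile of the array in all 4 arrays were dropped. limma 3.58.1 in R 4.3.3 fitted cell line and treatment with an intensity trend; tests were two-sided. The cell line pairs the arrays, as the labels give it. Responses of single lines have no test. The fit was also run on simulated arrays. Their noise was drawn from the fit's own trend of spread with brightness, so that run could not test the trend.

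Named are called genes, the 3 largest mean changes each way per complex, the 3 largest line differences and response gaps each way, isoform genes, and the 2 largest each way per other list; others were named after their values were seen. Members and lists were chosen with earlier results of these data known. Alternatives were other scalings, pseudocounts of 1 and 98, filtering at the 75th percentile or not at all, other choices of probe set, other variance models, and fits without the cell line or treatment term.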

Additional observations from a re-analysis of the deposited data

Results flagged for a closer look

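SUP-B15 and BV-173 responded to STI571 with opposite signs in 27 of the 63 subunit genes, against 3541 of all 7916 genes tested. The 8 genes of these whose responses differed by at least 0.5 on the log2 scale, a limit set after the values were seen, are given here. Each line has 1 pair of arrays, and the difference was not tested. The differences are on the deposited scale. With a common median, the median difference over the subunit genes turned from −0.17 to 0.10. Which genes pass the limit therefore depends on the scaling. With the lower response in SUP-B15, NDUFV2 differed by −0.88 (SUP-B15 −0.58, BV-173 0.30), COX4I1 by −0.63 (−0.38 and 0.25), ATP5MJ by −0.62 (−0.38 and 0.24), ATP5MC2 by −0.58 (−0.34 and 0.24) and ATP5ME by −0.50 (−0.42 and 0.09). With the higher response in SUP-B15, NDUFA7 differed by 0.80 (0.70 and −0.11), NDUFA6 by 0.61 (0.42 and −0.19) and NDUFA9 by 0.51 (0.07 and −0.44). For COX4I1, ATP5MJ and NDUFA6 the next probe set did not show the same pattern.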

How the results depend on the processing

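The fall of ATP5MC1 stayed called under 9 alternatives (log2 change −1.13 to −1.05, adjusted p = 1.58e-05 to 0.00864, limma). ATP5MC1 has a single probe set, so several of these could not alter its log2 change. They were the other filters, the choices of probe set that kept ATP5MC1 and a further variance model. Its change of −1.10 was not called without the intensity trend (adjusted p = 0.555) or with no replicate block, that is, without the cell line term (1.0). In those fits 0 of 7916 genes were called for STI571 (658 and 70 at an unadjusted p under 0.05), against 239; the count was 153 with a common median, 116 with the mean of probe sets and 137 with gene-specific probe sets. Subunit genes called lower numbered 2 after quantile normalization and 0 with gene-specific probe sets, which leave ATP5MC1 out, without the trend and without the block. The line difference was called for 1340 genes with gene-specific probe sets, 629 without the trend and 1460 without the treatment term, against 2273. Subunit genes called higher in SUP-B15 were 2 with a common median, 0 without the trend and 2 without the treatment term; those called lower were 0 without the trend and 5 without the treatment term. With a common median, the subunit median was −0.28 for the line difference, −0.15 for the SUP-B15 response and −0.24 for that of BV-173, and the difference of responses turned to 0.10; with gene-specific probe sets it was −0.062. Subunits at least 1.5-fold lower in BV-173 were 5 with a common median, and 2 when every probe set was counted, which gave 9 in SUP-B15. Those higher in BV-173 were 1 with gene-specific probe sets and 2 over every probe set, and those higher in SUP-B15 were 3 with no filter and 2 under each of these. At 2-fold, 1 was lower in SUP-B15 and 0 in BV-173; at a ratio of 5 to 4, 24 and 7. The mean changes of COX7C and NDUFA6 turned to −0.048 and −0.051 with gene-specific probe sets, and that of UQCRB to −0.031 after quantile normalization. Among the values of single named genes under the alternatives, 399 kept direction and side of the threshold, 41 lost a call and 1 gained one (NDUFAB1, quantile normalization). Direction could not change under the other variance models, and only genes called in the main fit could lose a call. The 399 is therefore not a measure of stability. The cause of the shifts under the alternatives was not tested. With 1 array per group, no array could be left out.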
